A study of Mus musculus with 60 samples.

Results

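The regions described here are 500 large clusters of H3K27ac in the chromatin of mouse dorsal root ganglia. They were chosen from the measured peaks. H3K27ac peaks of the 4 surgeries that overlapped an ATAC peak of any surgery were merged, neighbouring merged peaks were stitched into 1 domain, and the 500 domains with most H3K27ac-covered bases were kept out of 18835 stitched domains. They are 2.65% of the stitched domains and hold 12.9 Mb of the 50.2 Mb of H3K27ac-covered sequence, or 25.7%. Each domain is called by its rank, so that domain 1 has most covered bases.

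Dorsal root ganglia hold the cell bodies of the sensory neurons that project to the body and to the spinal cord, with the satellite glia, Schwann cells, vessels and connective tissue around them. The ganglia were L4 to L6, from C57BL/6 mice 6 to 8 weeks old, taken 24 h after 1 of 4 operations. SNA is an axotomy of the sciatic nerve, and Sham is the sham operation on that nerve. DCA is an axotomy of the dorsal columns, the spinal tract that carries the central branch of the same neurons, and Lam is the laminectomy that opens the spine without that cut. Chromatin immunoprecipitation for H3K27ac, H3K9ac and H3K27me3 used 2 samples per mark and surgery, each a pool of 10 mice, and ATAC-seq used 3 samples per surgery of 1 mouse each. The authors deposited 1 peak list per assay and surgery, made from the pooled replicates. No value below therefore has a replicate error, no difference between surgeries could be tested, and every comparison is between 2 lists. The lists come from whole ganglia, in which fewer cells of a type and less signal per cell cannot be told apart. All positions are on mm10, and gene positions are those of RefSeq on GRCm38.p6.

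H3K27ac is an acetyl mark on histone H3 found at active promoters and active enhancers, the distal sequences that raise transcription of genes on the same chromosome. Enhancers often lie in clusters, and clusters with unusually much of the mark, often called super-enhancers, are known from many tissues to lie near genes of cell identity and near highly transcribed genes. H3K9ac is another acetyl mark of active chromatin, H3K27me3 is the mark left by the Polycomb repressor complex, and ATAC-seq marks DNA that a transposase can reach.

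Sequences of the domains themselves are not shown. Printed here, 5′ to 3′ on the strand of the gene, are 250 bases before an annotated transcript start of 5 genes in the domains, from RefSeq on GRCm38.p6. For Maff and Cnp this start lies inside the gene body, downstream of the gene's first annotated base, and Maff has a further window that held none of these motifs. They were chosen after their values were seen, to show 1 gene of the largest domain, 1 glial gene, the 1 listed sensory neuron gene, 1 AP-1 family gene and 1 gene of the regeneration list. Capitals mark matches, on either strand, to a SOX motif (ACAANG), a TEAD motif (GGAATG), a cAMP response element (TGACGTCA) or an AP-1 motif (TGANTCA).
Prdm16, chr4:154636874-154637123, minus strand: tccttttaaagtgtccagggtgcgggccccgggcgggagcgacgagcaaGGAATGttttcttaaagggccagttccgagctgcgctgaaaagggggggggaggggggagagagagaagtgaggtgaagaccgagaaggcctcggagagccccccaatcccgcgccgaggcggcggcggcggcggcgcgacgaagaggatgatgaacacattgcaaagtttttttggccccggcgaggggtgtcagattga
Cnp, chr11:100574689-100574938, plus strand: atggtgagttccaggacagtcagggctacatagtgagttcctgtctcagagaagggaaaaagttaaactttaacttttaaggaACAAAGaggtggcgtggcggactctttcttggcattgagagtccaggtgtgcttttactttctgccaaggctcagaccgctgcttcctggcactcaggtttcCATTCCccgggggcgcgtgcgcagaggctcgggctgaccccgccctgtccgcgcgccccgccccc
Trpv1, chr11:73233899-73234148, plus strand: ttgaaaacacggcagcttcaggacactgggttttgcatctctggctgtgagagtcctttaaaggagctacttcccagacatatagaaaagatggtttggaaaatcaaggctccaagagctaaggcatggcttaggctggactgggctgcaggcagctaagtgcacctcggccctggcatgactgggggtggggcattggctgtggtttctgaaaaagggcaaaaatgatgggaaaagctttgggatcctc
Maff, chr15:79347270-79347519, plus strand: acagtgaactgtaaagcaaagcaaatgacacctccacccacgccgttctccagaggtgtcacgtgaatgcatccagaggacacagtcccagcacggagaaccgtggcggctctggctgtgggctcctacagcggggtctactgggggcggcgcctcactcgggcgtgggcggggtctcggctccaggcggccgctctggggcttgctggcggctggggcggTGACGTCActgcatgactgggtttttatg
Klf9, chr19:23140976-23141225, plus strand: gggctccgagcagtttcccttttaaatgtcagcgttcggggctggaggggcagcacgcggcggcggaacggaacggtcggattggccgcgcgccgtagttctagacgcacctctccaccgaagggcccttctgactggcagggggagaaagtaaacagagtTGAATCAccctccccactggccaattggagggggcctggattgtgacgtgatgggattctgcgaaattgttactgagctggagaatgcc
The Prdm16 stretch lay under H3K27ac in all 4 lists and under no ATAC peak. The stretches of Cnp, Maff and Klf9 lay under ATAC peaks in all 4 lists, and that of Trpv1 in the Sham, Lam and DCA lists. Retained H3K27ac peaks, those overlapping an ATAC peak, lay over the Cnp and Maff stretches in Lam only. They lay over the Klf9 stretch in SNA and Lam, and over the Trpv1 stretch in Lam and DCA. No capitals in Trpv1 says only that these letters are not in this window.

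The motifs were counted in 300-base windows, 250 bases before to 50 after a start, on both strands. Of the 1090 such windows in the domains, 6.15% held the AP-1 letters, against 6.99% of all 21262 windows. The SOX letters were in 32.6% against 38.1%, the TEAD letters in 13.8% against 13.6% and the cAMP response element in 2.57% against 2.23%. Windows under other H3K27ac peaks gave 4.56% for AP-1, 32.4% for SOX, 11.7% for TEAD and 3.57% for the cAMP response element. The direction for AP-1 and for the cAMP response element thus turned with the windows compared. For SOX the domains were below all windows but nearly equal to windows under other H3K27ac peaks. The GC box (GGGCGG) was in 62.9% of windows in the domains and 46.2% of all windows, but in 65.5% of windows under other H3K27ac peaks. Median GC content was 61.7% in the domains, 56.3% over all windows and 61.3% under other H3K27ac peaks.

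The domains also hold microRNA genes, short RNAs that repress messages matching their seed. Of 1005 annotated hairpins, 66 lay in a domain, or 6.57%. Mature sequences from RefSeq are shown for clusters in domains 5, 15 and 446 and for miR-196a, chosen after their positions were seen, with the seed (bases 2 to 8) in capitals.
miR-27b-3p: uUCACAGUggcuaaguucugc
miR-27a-3p: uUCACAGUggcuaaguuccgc
miR-24-3p: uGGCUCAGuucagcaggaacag
let-7c-5p: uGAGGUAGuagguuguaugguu
let-7b-5p: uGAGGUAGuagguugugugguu
miR-196a-5p: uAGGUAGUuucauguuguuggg
miR-27b and miR-24-1 lie in domain 5 beside the hairpin of miR-23b, and their paralogs miR-27a and miR-24-2 lie beside miR-23a in domain 446. The miR-27 pair shares the seed UCACAGU, and both copies of miR-24 give the same mature 3p sequence. The let-7c-2 and let-7b hairpins in domain 15, within the Ppara domain, share the seed GAGGUAG. miR-196a-2 lies in the HoxC domain, domain 460, and has the seed AGGUAGU.

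The domains were long, with a median span of 68.6 kb (18.7 to 299.0 kb) and a median of 17 merged peaks (4 to 59). Of all merged peaks in the domains, 77.6% overlapped a gene body, against 76.2% in the 500 domains next in rank and 71.4% elsewhere. H3K27ac covered a median of 21.3 kb per domain, from 14.9 to 102.9 kb, or a median of 33.9% of the span. Over all stitched domains the median was 1.31 kb, and 45.1% of those were a single merged peak. Near the cut at rank 500 the values ran without a step: domain 498 (Hdac4, a histone deacetylase) had 14.907 kb, domain 499 (Nav1) 14.893 kb and domain 500 (Poldip3 and Cyb5r3) 14.887 kb. The next were 14.873 kb (Asic1, Smarcd1, Gpd1 and Cox14), 14.872 kb (Cend1, Slc25a22, Pidd1 and neighbours) and 14.869 kb (Tshz1 and Zadh2).

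Most of the sequence in the domains was away from gene ends, where enhancers lie, and a smaller part was at gene ends. Of 9477 merged peaks in the domains, 17.8% lay within 1 kb of an end of a protein-coding gene, against 33.9% of the merged peaks elsewhere and 22.7% in the 500 domains next in rank. By bases the shares were 11.6%, 30.7% and 17.7%. Merged peaks in the domains were wider, at a median of 906 bp against 640 bp elsewhere, and 28.3% of them had a peak in all 4 lists against 19.6% elsewhere. Stitching and ranking by bases favour wide peaks and close neighbours, so these are descriptions.

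The domains were spread over all autosomes and absent from both sex chromosomes. Chromosome 11 held 60, chromosome 2 held 41 and chromosome 15 held 38, while chromosome 16 held 6. As a share of a chromosome's stitched domains, chromosome 15 was highest at 5.15% and chromosome 16 lowest among the autosomes at 0.875%. Chromosome X had 269 stitched domains. The largest of them covered 7.51 kb and had rank 1354.

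H3K9ac, which the choice of domains did not use, was more frequent at the distal peaks of the domains than at distal peaks elsewhere. In Sham, 56.1% of the 7794 distal peaks in the domains overlapped an H3K9ac peak against 39.6% elsewhere. The shares were 71.6% against 53.9% in SNA, 47.9% against 36.2% in Lam and 77.8% against 61.5% in DCA. The 500 domains next in rank lay between, at 50.4%, 66.9%, 44.2% and 73.2%. Distal peaks in the domains were also wider, with medians of 867.5 bp against 568 bp elsewhere, and the part of width in this difference was not tested. At gene ends the domains and the rest differed in no single direction in H3K9ac. The shares were 70.6% against 69.6% in Sham, 76.8% against 73.2% in SNA, 68.4% against 72.9% in Lam and 91.3% against 90.7% in DCA. ATAC peaks of all 4 surgeries were present at 23.7% of the distal peaks in the domains and 24.2% elsewhere.

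A total of 1183 of 21883 protein-coding genes overlapped a domain, or 5.41%. No gene overlapped 22 domains, 1 gene overlapped 218, and 260 domains held 2 or more, up to 15.

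Domain 1 (chr4:154479886-154649724) lies within the locus of Prdm16, a zinc-finger transcriptional regulator, and has 102.9 kb of H3K27ac. Its coverage was 81.1 kb after SNA and 41.4 kb after Sham, against 37.3 kb after DCA and 77.1 kb after Lam, so that SNA and Lam were high and Sham and DCA low. H3K9ac in it covered 69.6 kb in Sham and 102.4 kb in SNA, with 45.1 kb in Lam and 106.3 kb in DCA, so that for this mark both injuries were high. Domain 2 (chr17:83937275-84120891) overlaps no protein-coding gene. The nearest is Zfp36l2, an RNA-binding regulator of message decay, 63.0 kb away. Its H3K27ac covered 43.5 kb in Sham and 62.8 kb in SNA, with 71.5 kb in Lam and 37.2 kb in DCA.

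In the other 18 of the largest 20, SNA and Lam again lay above Sham and DCA, with 1 exception. Domain 4 lies over Sh3pxd2a, a scaffold of invasive cell protrusions, domain 10 over Tgfbr3, a co-receptor for TGF-beta, domain 11 over Tns1, which links integrins to actin, and domain 12 over Septin9, a cytoskeletal GTPase. Domain 8 (chr2:26437944-26587843) holds Notch1, a receptor of cell fate, Egfl7, a factor secreted by endothelial cells, and Sec16a, which acts at the exit sites of the endoplasmic reticulum. It had 47.3 kb after SNA and 27.5 kb after Sham, against 22.0 kb after DCA and 53.1 kb after Lam. Domain 15 holds Ppara, a nuclear receptor of fatty acid oxidation, domain 17 Id1, an inhibitor of basic helix-loop-helix factors, and Bcl2l1, an inhibitor of cell death. Domain 18 holds Srebf1, a regulator of lipid synthesis, and Rai1, domain 19 the homeobox gene Cux1 and domain 20 Ski, a repressor of TGF-beta signalling. Domains 3, 5, 6, 7, 9, 13, 14 and 16 lie over Cstad, 1700001O22Rik and Ntmt1, over Aopep and Fancc, over Lhpp and Fam53b, over Dnajb12, Ddit4, Anapc16 and Ascc1, over Irf2bpl and Cipc, over Fam104a to Sdk2, over Frmd8, Slc25a45 and Tigd3, and over Psen2, Itpkb and Stum. Domain 3 is the exception, with 57.1 kb in Sham against 53.8 kb in SNA. Domain 14 also contains the long noncoding RNAs Malat1 and Neat1, which were looked up after the domains were known.

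**Figure D1:**
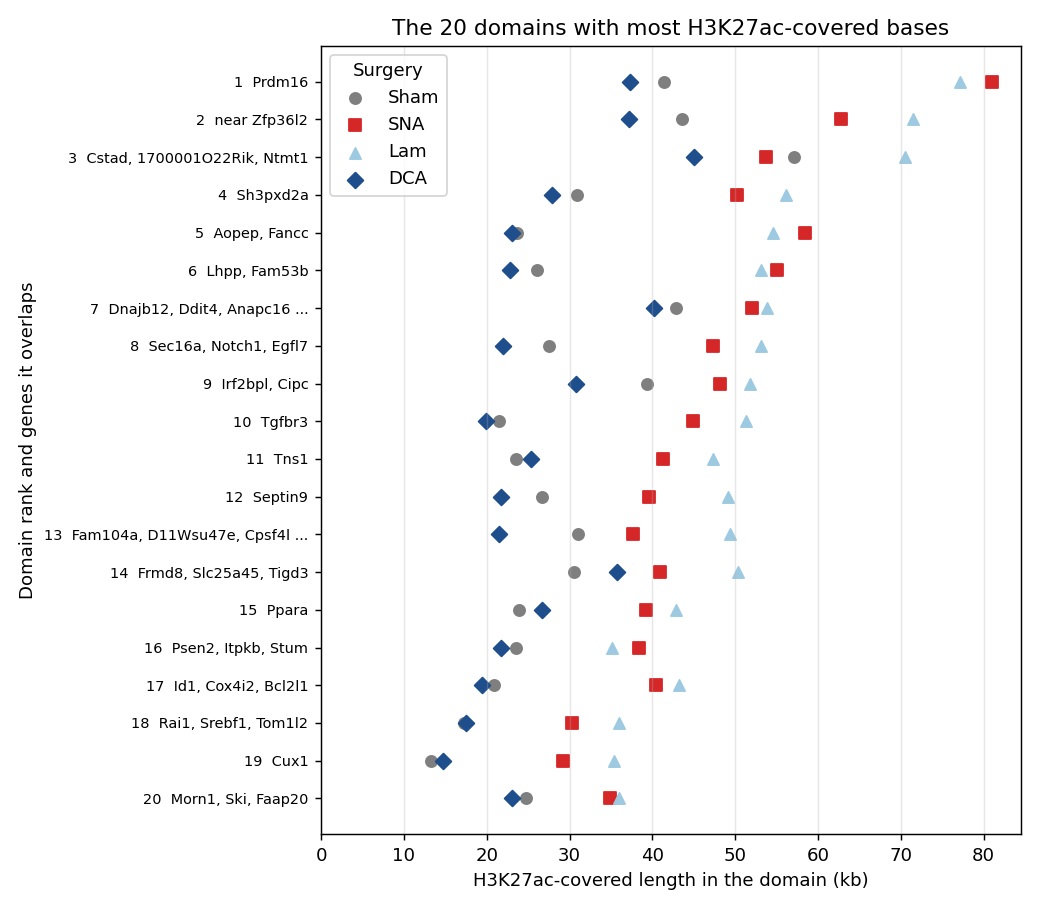
H3K27ac-covered length in kb (x axis) of the 20 domains with most covered bases (y axis: rank and genes), 1 point per surgery, each from 1 pooled peak list. Lam or SNA is the highest point in all 20, and domain 1 (Prdm16) reaches 81.1 kb in SNA.

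Genes of glial identity were among those in the domains. Of 25 genes on a list for satellite glia and Schwann cells, 5 overlapped a domain (20%, beside 5.41% of all genes). A stitched domain of some size overlapped 22 of the 25 (88%, beside 59.98% of all genes). The 5 are Sox10, the transcription factor of the glial lineage, and the myelin genes Mbp, Pmp22, Prx and Cnp. Sox10 lies in domain 23 (chr15:79125601-79252253), where H3K27ac covered 21.7 kb in Sham and 41.3 kb in SNA, with 41.8 kb in Lam and 26.0 kb in DCA. Much of that lay outside the Sox10 gene body, as the map of domain 23 shows. Mbp, a major myelin protein, lies in domain 149, with 8.78 kb in Sham, 9.28 kb in DCA and 17.3 kb in both SNA and Lam. Cnp, an enzyme of myelinating cells, lies in domain 201, with 7.29 kb in Sham and 17.1 kb in SNA, and 17.6 kb in Lam and 11.6 kb in DCA. Pmp22 is in domain 268 and Prx in domain 352. In all 5 domains SNA was above Sham and DCA below Lam, also with lists of equal size and at a −log10 q of at least 5. Nearly all domains shared this: of the 500, SNA was above Sham in 478 and DCA below Lam in 498. With lists of equal size these counts were 416 and 481, and at that −log10 q they were 462 and 499. The median log2 ratios of the 5 glial domains were 0.91 (SNA over Sham) and -0.80 (DCA over Lam), beside 0.68 and -0.92 over the 500 domains.

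**Figure D2:**
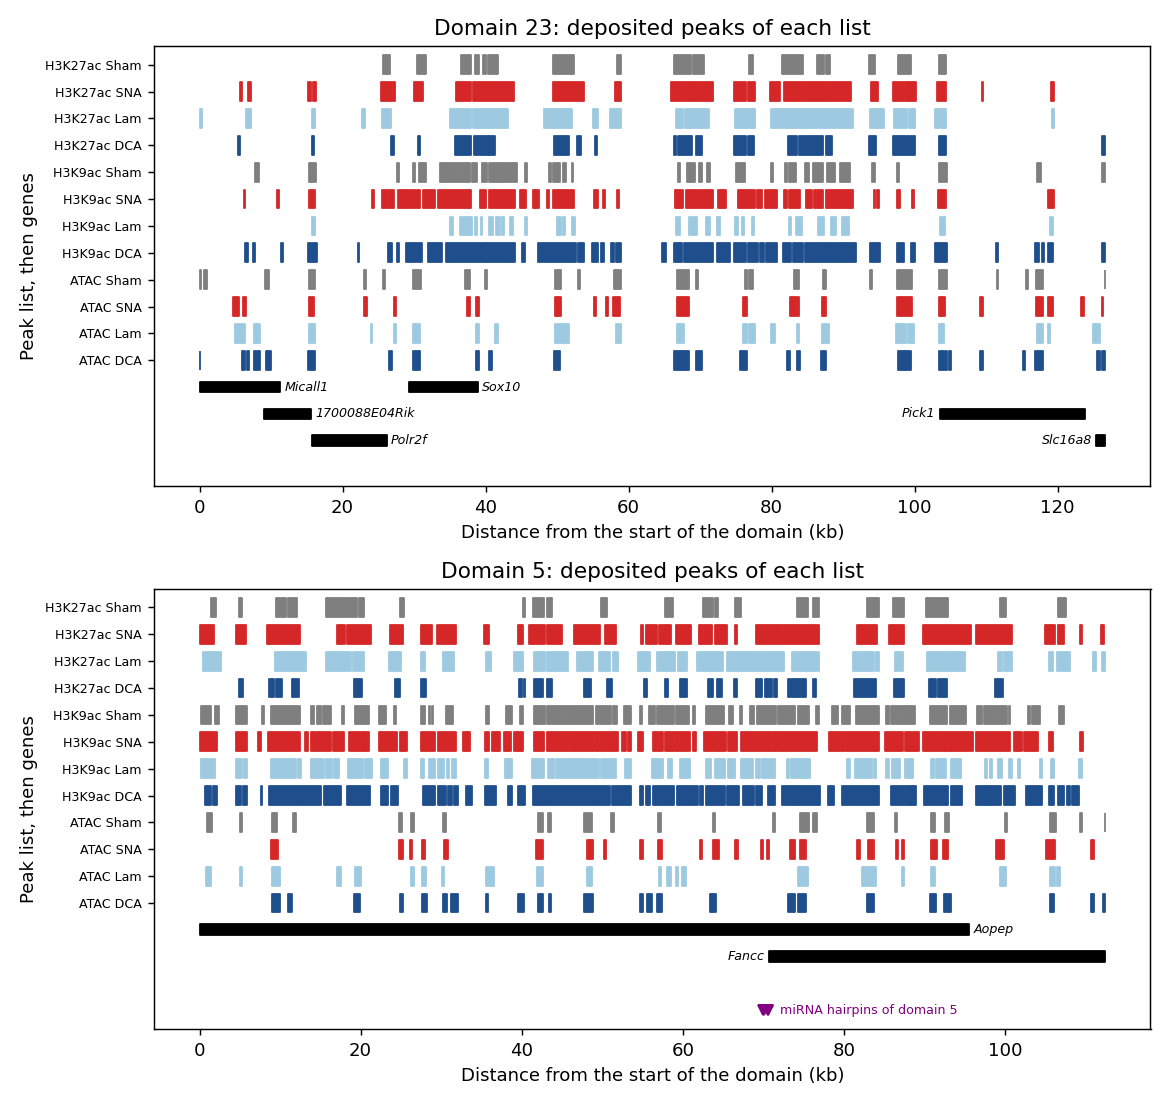
Peaks of the H3K27ac, H3K9ac and ATAC lists of each surgery (rows) along domain 23, which holds Sox10, and domain 5, which holds Aopep, Fancc and 4 microRNA hairpins (triangles, of which those of miR-24-1 and miR-3074-1 overlap). The x axis is distance in kb from the start of the domain, bars are peaks, black bars are gene bodies, and H3K27ac fills 41.3 kb of domain 23 in SNA and 21.7 kb in Sham.

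Of 31 listed genes of sensory neurons, 1 overlapped a domain (3.23%, near the 5.41% of all genes), namely Trpv1, the capsaicin receptor of nociceptors. A stitched domain of some size overlapped 21 of the 31 (67.7%, beside 59.98% of all genes). Trpv1 shares domain 220 (chr11:73197977-73242410) with Shpk, a sugar kinase, and Ctns, a lysosomal cystine transporter. Its H3K27ac covered 15.5 kb after SNA and 6.75 kb after Sham, against 6.65 kb after DCA and 15.0 kb after Lam. ATAC peaks covered 6.63 kb in Sham and 3.78 kb in SNA, with 6.84 kb in Lam and 6.97 kb in DCA, so that SNA was lowest in accessibility while it was highest in H3K27ac. With ATAC lists of equal size the SNA value was 3.57 kb against 6.63 kb in Sham, but at a −log10 q of at least 5 it was 1.97 kb against 2.06 kb.

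Immediate early genes and their AP-1 partners, which respond to stimuli within hours, were also among those in the domains. Of 20 immediate early and AP-1 genes, 4 overlapped a domain (20%, beside 5.41% of all genes): Nr4a1, a nuclear receptor, in domain 174, Fosl1 in domain 146, Jund in domain 260 and Maff in domain 359. Nr4a1's domain had 10.7 kb of H3K27ac in Sham and 18.7 kb in SNA, with 18.0 kb in Lam and 9.78 kb in DCA. Fosl1's, which also holds the actin-severing gene Cfl1, had 13.1 kb in Sham and 14.7 kb in SNA, which were close, 20.7 kb in Lam and 12.6 kb in DCA. All 20 of the listed genes overlapped a stitched domain of some size, beside 59.98% of all genes. Within 50 kb of one of the 500 lay 8 of them (40%, beside 9.31% of all genes), a window added after the data were seen. By that window the share was 35% for the housekeeping list described below and 24% for the glial list. The other lists lay between 0% and 14.3%. Of 40 regeneration-associated genes, 4 overlapped a domain (10%, beside 5.41% of all genes). A stitched domain of some size overlapped 24 of the 40 (60%, beside 59.98% of all genes). Those in the 500 domains are Socs3, an inhibitor of cytokine signalling, in domain 67, Klf7 in domain 206, Klf9 in domain 343 and Stat3, the cytokine-activated transcription factor, in domain 357. The 4 domains summed to 60.7 kb after SNA and 44.9 kb after Sham, against 39.6 kb after DCA and 69.1 kb after Lam. Their median log2 ratios were 0.42 (SNA over Sham) and -0.84 (DCA over Lam), beside 0.68 and -0.92 over the 500 domains. Atf3, a transcription factor induced by axotomy and on both lists, lay within 50 kb of domain 188, which had 5.91 kb in Sham and 15.2 kb in SNA, with 14.3 kb in Lam and 8.09 kb in DCA.

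Lists for other cell types gave counts that, for lists this short, are near the 5.41% of all genes. None of 23 macrophage, 20 fibroblast and meningeal, 12 skeletal muscle, 12 central nervous system or 12 liver genes overlapped a domain, and 1 of 21 endothelial and mural genes did (4.76%, Egfl7). Of 20 housekeeping genes 6 did (30%, beside 5.41% of all genes): Actb, Rplp0, Cfl1, Rpl3, Pfn1 and Hsp90ab1. Of 21 genes for readers, writers and erasers of acetylation, Hdac4 overlapped one. A stitched domain of some size overlapped 19 of the 20 housekeeping genes (95%, beside 59.98% of all genes). The lists are short, and the share of each moves by several points with 1 gene.

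**Figure D3:**
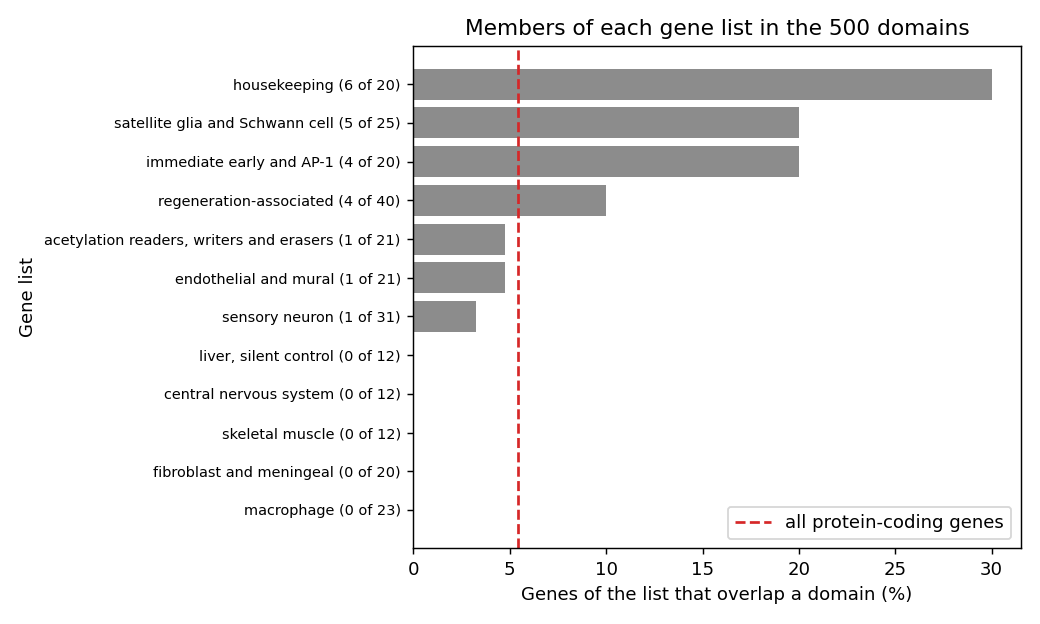
Share of each gene list's members that overlap a domain, in percent (bars, with counts in the row names), beside the 5.41% of all protein-coding genes (dashed line). Housekeeping, glial and immediate early genes stand at 20% or more, and 5 lists stand at 0.

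By surgery, the domains had most H3K27ac in Lam and SNA and least in Sham and DCA. In total the peaks covered 5.03 Mb of the domains in Sham and 8.24 Mb in SNA, with 9.09 Mb in Lam and 4.75 Mb in DCA. Lam was highest in 357 of the 500 domains and SNA in 138, while DCA was lowest in 283 and Sham in 213. On the log2 scale of covered length, with 500 bp added to each value, the median was 0.68 for SNA over Sham (SD over domains 0.50) and -0.92 for DCA over Lam (SD 0.42). SNA was at least 2-fold above Sham in 137 domains (27.4%, beside 21.3% of all stitched domains) and below it by that much in 0 (4.33% of all). DCA was at least 2-fold below Lam in 209 domains (41.8%, beside 24.3% of all) and above it in 0 (2.18% of all). Lam was at least 2-fold above Sham in 181 (36.2%, beside 24.5% of all) and below it in 0 (3.06% of all), although neither operation cut an axon.

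These differences were those of the whole lists. The domains held 26.9% of the H3K27ac bases that met the ATAC condition in the Sham list, 27.5% of SNA, 27.3% of Lam and 26.6% of DCA. The 500 domains next in rank gave the same counts, 137 for SNA above Sham and 209 for DCA below Lam. All stitched domains include many of about 1 kb, in which the added 500 bp shrinks a ratio. H3K27ac coverage by surgery in the large domains thus followed that of the lists they were drawn from. The direction was also seen where the domains were chosen without the lists compared. Domains chosen from Lam and DCA alone gave 118 with SNA at least 2-fold above Sham and a median of 0.65, and domains chosen from Sham and SNA alone gave 189 with DCA at least 2-fold below Lam and a median of -0.86.

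The lists differed in size and in estimated depth. Only size split them as coverage did, with SNA and Lam above Sham and DCA. The SNA and Lam lists held 75824 and 67311 H3K27ac peaks, against 43803 in Sham and 46489 in DCA. Ranks in the peak names reached 105645 in SNA, 114123 in Sham, 160148 in Lam and 130902 in DCA, so each list is part of a longer one, of which it holds between 35.5% (DCA) and 71.8% (SNA). The background pile-up estimated from the peaks, a rough measure of effective depth, was 2.34 after SNA and 2.91 after Sham, against 2.11 after DCA and 3.08 after Lam. Each is the best match to weaker peaks sampled from the list. It matched only 23.25% of them in SNA, 20.5% in Sham, 24.75% in DCA and 30.5% in Lam. By this estimate SNA had more coverage than Sham at the lower background, while DCA had less than Lam at the lower background. The part of list size and depth in the result was not tested. With lists cut to equal size, the median for SNA over Sham was 0.46. That for DCA over Lam was then -0.69, and Lam over Sham gave 0.58. The counts past 2-fold were then 80 (SNA above Sham), 119 (DCA below Lam) and 92 (Lam above Sham), and at a −log10 q of at least 5 they were 206, 348 and 289.

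**Figure D4:**
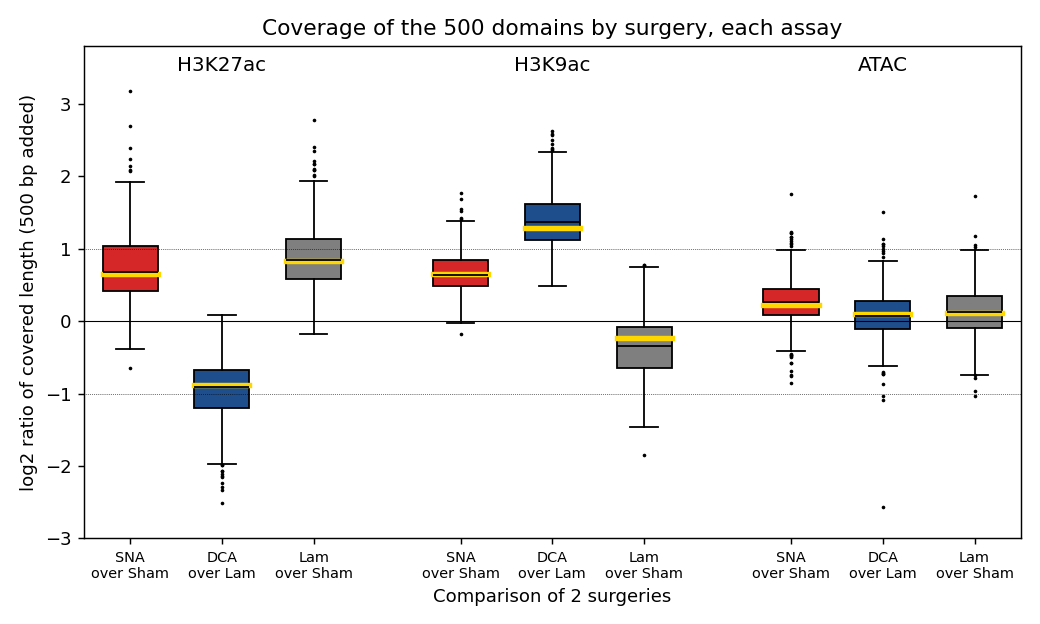
Distribution over the 500 domains of the log2 ratio of covered length between 2 surgeries (y axis, 500 bp added) for H3K27ac, H3K9ac and ATAC. Boxes are quartiles with the median in black, whiskers reach at most 1.5 times the box height, gold bars are medians of the 500 domains next in rank, and dotted lines mark 2-fold: DCA over Lam lies at -0.92 in H3K27ac and at 1.36 in H3K9ac.

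H3K9ac gave another order of the surgeries. Its peaks covered 6.95 Mb of the domains in Sham and 11.1 Mb in SNA, with 5.29 Mb in Lam and 13.9 Mb in DCA, so that each injury was above its own control. DCA was at least 2-fold above Lam in 428 domains (85.6%, beside 24.6% of all stitched domains and 76.0% of the 500 next in rank) and below it in 0 (0.154% of all), with a median log2 ratio of 1.36. SNA was at least 2-fold above Sham in 70 (14.0%, beside 7.85% of all and 17.2% of the next 500) and below it in 0 (1.06% of all), with a median of 0.64. In 62 domains (12.4%, beside 3.99% of all) both held. With lists of equal size the count for SNA above Sham was 19, and at a −log10 q of at least 5 it was 416. That for DCA above Lam was 248 with lists of equal size. Lam was at least 2-fold below Sham in 36 domains (7.2%, beside 4.78% of all) and above it in 0 (3.65% of all), with a median of -0.34. At a −log10 q of at least 5 that median turned to 0.87, with Lam at least 2-fold above Sham in 232 domains and below it in 21. The background pile-up of the H3K9ac lists was 1.68 in Sham and 2.08 in SNA, with 3.03 in Lam and 5.20 in DCA. This estimate matched 51.5% of the sampled peaks in Sham and 44.0% in SNA, but only 14.0% in Lam and 26.25% in DCA. The DCA list held 89647 peaks against 50667 in Lam. The part of depth and list size in the result was not tested.

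DCA over Lam thus had opposite signs in the 2 acetyl marks over the same domains. With lists of equal size, at the reported domain limits, the medians were -0.70 in H3K27ac and 1.02 in H3K9ac. Across the 500 domains the ratios of both marks had a Pearson correlation of 0.39 in the SNA comparison and -0.16 in the DCA comparison. This is a description over domains that share their lists.

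Accessibility differed less between the surgeries than either acetyl mark. ATAC peaks covered 4.03 Mb of the domains in Sham and 4.91 Mb in SNA, with 4.48 Mb in Lam and 4.71 Mb in DCA. SNA was at least 2-fold above Sham in 11 domains (2.2%, beside 3.76% of all) and below it in 0 (1.34%). DCA was above Lam in 5 (1.0%, beside 3.24%) and below it in 3 (0.6%, beside 1.84%). Lam was above Sham in 4 (0.8%, beside 2.89%) and below it in 1 (0.2%, beside 2.38%). The medians were 0.26 (SNA over Sham) and 0.07 (DCA over Lam). Across domains, ATAC and H3K27ac ratios had correlations of 0.05 in the SNA comparison and -0.02 in the DCA comparison.

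The ends of the range in H3K27ac included domains with a pattern of their own. The largest ratio of SNA over Sham was in domain 296 (chr13:102569094-102605484), which overlaps no protein-coding gene and is 88.1 kb from Cd180, a receptor of B cells and macrophages. It had 17.4 kb after SNA and 1.49 kb after Sham, against 4.77 kb after DCA and 7.97 kb after Lam, a log2 ratio of 3.17. Its ATAC peaks were short, at 1.59 kb in Sham and 0.66 kb in SNA, with 0.78 kb in Lam and 1.42 kb in DCA. Domain 311 (chr12:77495773-77542259), 19.8 kb from the fucosyltransferase gene Fut8, had 3.35 kb in Sham and 16.4 kb in SNA, with 5.50 kb in Lam and 3.11 kb in DCA. Here ATAC was also highest in SNA, at 6.49 kb against 3.40 kb in Sham. Domains 296 and 311 were the only 2 of the 500 in which SNA was at least 2-fold above each of the other 3 surgeries in H3K27ac. With lists of equal size their SNA values were 16.3 and 13.8 kb, and at a −log10 q of at least 5 they were 13.8 and 12.0 kb, above the other surgeries in each case.

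Gse1, a gene that encodes a coiled-coil protein, lies over domain 233 with the next largest ratio, at 13.4 kb after SNA and 1.65 kb after Sham, against 6.82 kb after DCA and 14.3 kb after Lam, where Sham stood apart rather than SNA. Gse1 also overlaps domain 265, where SNA was below Sham, at 8.72 kb against 10.0 kb, with 12.7 kb in Lam and 4.79 kb in DCA. Rnf216, a ubiquitin ligase (domain 262), and Lonp2 with Siah1a (domain 288) came after domain 233, at log2 ratios of 2.39 and 2.24. At the other end were Prkcd, a protein kinase C (domain 300), at -0.64, and the domains of Hsp90ab1 (479), Nfix and Calr (42), Aatk (80) and Rpl3 (422), at -0.38 to -0.23. Domain 300 had 9.45 kb in Sham and 5.87 kb in SNA, with 14.2 kb in Lam and 7.46 kb in DCA. Its H3K9ac went the other way between Sham and SNA, at 12.3 and 20.3 kb.

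For DCA over Lam the lowest H3K27ac ratios were in the domains of Elmo1, which acts in engulfment and cell migration (domain 482, -2.51), Tbx2 with Bcas3 (407, -2.33), Tspan18 (116, -2.29), Zfp469 (491, -2.23) and Sox8 with Lmf1 (208, -2.16). Elmo1's domain had 11.7 kb after SNA and 4.20 kb after Sham, against 1.39 kb after DCA and 10.3 kb after Lam. The highest were near 0. They included the domains of Rarg with Itgb7, Csad and Zfp740 (340, 0.09), of Unc13a and Slc27a1 with their neighbours (476, 0.05), of Ippk and Cenpp (178, -0.14) and of Msh5, Clic1 and their neighbours (375, -0.15).

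**Figure D5:**
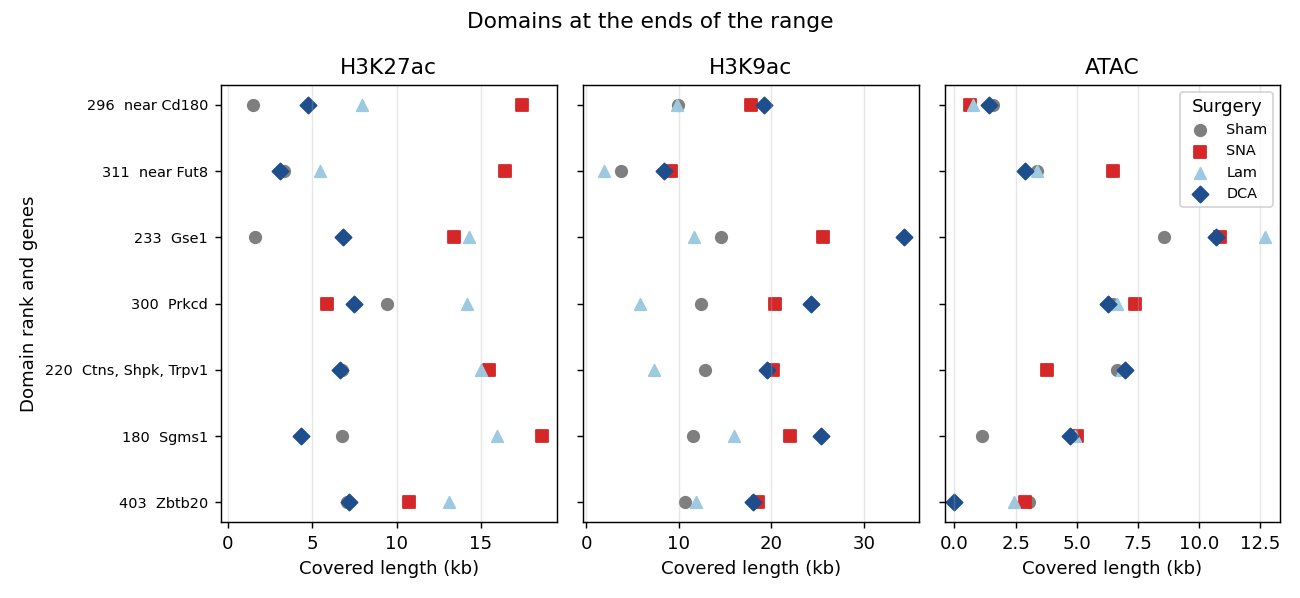
Covered length in kb (x axes) of H3K27ac, H3K9ac and ATAC in 7 domains named in the text (y axis: rank and genes), 1 point per surgery from 1 pooled list each. Domain 296 has 17.4 kb of H3K27ac in SNA and 1.49 kb in Sham, and domain 403 (Zbtb20) has no ATAC peak in DCA.

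In H3K9ac the largest SNA over Sham ratios were in the domains of Utrn, which encodes a relative of dystrophin (463, 1.76), Fa2h, an enzyme of myelin lipid synthesis, with Mlkl (269, 1.68), Ctdspl (346, 1.55), Bcas3 (467, 1.52) and Ccser2 (398, 1.42). The lowest were those of Pcgf2 and Mllt6 with their neighbours (474, -0.17), Mdk, Dgkz and Creb3l1 (406, -0.03), Hsp90ab1 (479, -0.01), Llgl2 with its neighbours (276, 0.05) and Zswim4 with Nanos3 (446, 0.06). For DCA over Lam the highest were those of Sfrp5, a secreted WNT antagonist, with Zfyve27 (325, 2.63), Cotl1 with Meak7 (416, 2.58), Gamt and its neighbours (140, 2.56), Prima1 (458, which had 13.9 kb in DCA and 2.04 kb in Lam) and Macrod1 with its neighbours (115, 2.44). In domain 325 H3K9ac covered 7.70 kb in Sham and 15.3 kb in SNA, with 1.78 kb in Lam and 13.6 kb in DCA, so that Lam was lowest. The lowest H3K9ac ratios of DCA over Lam were those of Ippk and Cenpp (178, 0.48), Nr2f2, a nuclear receptor (65, 0.52), Plcb4 (303, 0.53), Aopep and Fancc (5, 0.58) and Zbtb20 (403, 0.59), all still above 0.

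In ATAC the largest SNA over Sham ratios were in the domains of Sgms1, an enzyme of sphingomyelin synthesis (180, 1.75), Uaca (160, 1.23), Daam2, which acts in WNT signalling (457, 1.22), Lonp2 with Siah1a (288, 1.17) and the gene-free domain 285 (1.22). Sgms1's domain had 1.14 kb in Sham against 5.02 kb in SNA, 4.94 kb in Lam and 4.73 kb in DCA, so that Sham stood alone. The lowest were domain 296 (-0.85), the domains of Cspg4 with Odf3l1 (365, -0.76), Trpv1 (220, -0.74) and Ldlrad3 (390, -0.69) and the gene-free domain 287 (-0.58). For DCA over Lam the highest included domain 285 (1.51) and the domains of Plcb4 (303, 1.07), Tgfbr2, a TGF-beta receptor (314, 1.06), and Tead1, a transcription factor of the Hippo pathway (226, 1.04). The lowest besides Zbtb20 were those of Bcas3 (467, -1.10), Kremen1 with Emid1 (392, -1.03), Tgfbr3 (301, -0.73) and the gene-free domain 488 (-0.87). Zbtb20, a zinc-finger transcriptional repressor (domain 403), had 3.04 kb of ATAC peaks in Sham, 2.90 kb in SNA and 2.46 kb in Lam, and none was listed in DCA. At a −log10 q of at least 5 the Sgms1 domain kept ATAC peaks in SNA only (1.01 kb) and the Zbtb20 domain in Lam only (0.53 kb).

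H3K27me3 was sparse in the domains and differed by list. Its peaks covered 2.03% of the domains' span in Sham and 0.728% in SNA, with 2.97% in Lam and 0.177% in DCA, against 3.71%, 1.51%, 4.55% and 0.436% over all stitched domains. DCA was at least 2-fold below Lam in 342 domains (68.4%, beside 15.4% of all) and above it in 5 (1.0%, beside 0.871%), and SNA was at least 2-fold below Sham in 191 (38.2%, beside 10.4%) and above it in 39 (7.8%, beside 3.27%). Lam was at least 2-fold above Sham in 187 (37.4%, beside 8.93%) and below it in 60 (12.0%, beside 5.54%). The 500 domains next in rank were nearer, at 56.2% for DCA below Lam, 32.8% for SNA below Sham and 30.8% for Lam above Sham. Over all stitched domains the median of each of these H3K27me3 ratios was 0. No H3K27me3 peak fell in 413 domains in DCA, 279 in SNA, 162 in Sham and 71 in Lam. The whole H3K27me3 lists covered 178.0 Mb in Sham and 172.7 Mb in SNA, with 194.2 Mb in Lam and 91.4 Mb in DCA, and the part of list extent in these differences was not tested. The lists were weak, with a median −log10 q of 0 in SNA, Lam and DCA and of 0.004 in Sham.

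Among the domains with most H3K27me3 in Sham, looked up after the data were seen, were the Prdm16 domain with 16.8 kb and the HoxC domain with 16.7 kb. Hox genes set position along the body axis and are textbook targets of Polycomb. Domain 58 (chr11:96269679-96355259) holds 8 HoxB genes and domain 460 (chr15:102966768-103015958) 5 HoxC genes. In HoxC, H3K27me3 covered 16.7 kb in Sham and 1.82 kb in SNA, with 18.6 kb in Lam and 0.24 kb in DCA. Its H3K27ac covered 8.04 kb in Sham and 10.9 kb in SNA, with 12.7 kb in Lam and 7.13 kb in DCA. Both marks were thus listed in the HoxC domain of whole ganglia, with H3K27me3 higher in the lists of the 2 operations without axotomy.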

How the data were processed

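ChIP-seq for 3 histone marks and ATAC-seq were analysed from 16 peak lists. Each was made by the authors from pooled replicates, per the labels, so no list has replicate error and no test between surgeries was run. The aligner and peak caller are not given in the sources used here, and the build is mm10 per the submitters' processing notes. Column values are the deposited fold (a ratio of each peak to background), and the deposited −log10 p and −log10 q are the authors' own. Depth in reads is unknown. An effective background pile-up was recovered from fold and −log10 p of 400 peaks per narrow list (within 0.004).

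Repeated ATAC intervals were collapsed. H3K27ac peaks overlapping an ATAC peak by at least 1 bp were merged, stitched at 12.5 kb and ranked by covered bases. Coverage ratios added 500 bp, and the fold limit was 2. Interval code (Python 3.11.15, numpy 2.4.6, pandas 2.3.3) was tested on simulated intervals. Genes, promoters and microRNAs are from RefSeq on GRCm38.p6. Named genes are those of the 20 largest domains, listed genes in a domain, the 5 highest and 5 lowest ratios per assay, and the 3 domains on either side of rank 500. The members and lists were chosen with earlier results of these data known. Alternatives covered stitching distance, the ATAC condition, peak strength, list size, gene ends, ranking, lists left out, added bases and fold limit. Some results that fall under the naming rule are not reported here.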

Additional observations from a re-analysis of the deposited data

Results flagged for a closer look

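H3K27ac-covered bases of the domains moved in opposite directions after the 2 injuries. SNA over Sham had a log2 ratio of 0.71 in total and DCA over Lam one of -0.94. By sign, 476 of 500 domains (95.2%, beside 45.4% of all stitched domains) were above 0 for SNA over Sham and below 0 for DCA over Lam, and 84 (16.8%, beside 7.74% of all) passed 2-fold in both. All stitched domains include many short ones. Of the 500 domains next in rank, 456 were above 0 for SNA over Sham and 492 were below 0 for DCA over Lam. The difference between the 2 injuries was not tested, since each surgery has 1 pooled list. Lam and Sham, the 2 controls, themselves differed by a log2 ratio of 0.85.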

How the results depend on the processing

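No paired analysis was possible because each deposited list pools its replicates, and for the same reason no replicate could be left out. Of 89 alternative values of the main results, 71 stayed close (counts within 1.5 times, medians within 1 SD over domains) and 18 moved. The 1183 genes became 595 with stitching at 5 kb, 2537 at 25 kb and 617 without peaks at gene ends. At a −log10 q of at least 5, the counts past 2-fold in H3K27ac were 206 (SNA above Sham), 348 (DCA below Lam) and 289 (Lam above Sham), and with equal list sizes 80, 119 and 92. At a fold limit of 1.5 they were 294, 400 and 371. For H3K9ac, SNA above Sham was 416 at that −log10 q, 19 with equal list sizes, 38 with 2000 bp added, 107 without the ATAC condition and 289 at a fold limit of 1.5, and DCA above Lam was 248 with equal list sizes. The H3K9ac median for Lam over Sham reversed from -0.34 to 0.87 at a −log10 q of at least 5. Where domains were redefined, between 71.8% and 96.2% of the new 500 overlapped a reported one. The causes were not tested. Read depth of the samples is unknown, which limits how far list differences can be read.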
